A study of Mus musculus with 6 samples.

Results

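The 7 genes described here encode secreted cytokines through which macrophages support B cells or set the tone of inflammation: Tnfsf13b, Tnfsf13, Il6, Il10, Tgfb1, Tnf and Il15. They were taken by symbol, with earlier results of these data known, from 32879 genes for which RefSeq transcript records had been counted. RNA-seq was done on cell-sorted peritoneal macrophages (PMs), gated as F4/80+ CD11b high cells, and each library came from 1 mouse. Controls were 3 female F1 offspring of New Zealand white and BALB/c parents aged 33, 33 and 30 weeks, from a cross labelled as not susceptible to lupus. The diseased-BWF1 group held 3 female F1 offspring of New Zealand black and New Zealand white parents, a spontaneous model of systemic lupus erythematosus, aged 31, 31 and 34 weeks, with high titres of antibodies to double-stranded DNA and severe proteinuria. The groups share the New Zealand white parent and differ in the other parent as well as in disease, so strain and disease cannot be told apart. The labels name no drug or transgene, and young BWF1 mice before disease were not analysed here.

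Total counts ranged from 3629901 to 5003360 per library, of which 89.1% to 93.0% lay on genes. At this depth 3 counts, taken as the floor below which a gene cannot be told from absence, equalled 0.652 to 0.888 CPM, the unit that scales counts to a common library total. Defining macrophage genes were abundant in every library (summed level of 9 markers, 37651 to 50889 CPM in control and 32057 to 37613 CPM in diseased-BWF1 mice). Lyz2 made up most of this sum, with a mean of 27354 CPM over all mice. Of the 9 markers, 1 was higher and 4 were lower in every diseased than in every control mouse (9.81% and 11.1% of genes tested). The 8 B cell markers, 4 of which had at most 3 counts in every library, summed to 4.88 to 8.26 CPM in control and 1.85 to 4.27 CPM in diseased-BWF1 mice. The 6 T cell markers with a record summed to at most 3.53 CPM and the 4 NK cell markers to at most 0.304 CPM.

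BAFF, encoded by Tnfsf13b, and APRIL, encoded by Tnfsf13, are ligands of the TNF superfamily. BAFF keeps maturing B cells alive, and APRIL supports plasma cells and class switching. IL-6, TNF and IL-15 are inflammatory cytokines made by activated macrophages, IL-6 also helping plasma cells and IL-15 sustaining NK cells and memory CD8 T cells. IL-10 and TGF-β1 restrain macrophage activation, while IL-10 can also drive B cells towards antibody secretion, and TGF-β1 is released in a latent form that has to be activated outside the cell.

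The sequences just upstream of 4 of these genes are shown because they belong to the most abundant cytokines, Tnfsf13 and Tgfb1, and to Il6 and Tnf, which rise quickly in stimulated macrophages. Each run holds the 250 bases before the RefSeq start (build GRCm38.p6), read 5′ to 3′ on the strand of the gene. Capitals mark matches, on either strand, to the κB consensus, the AP-1 site TGANTCA, the cAMP response element GACGTCA, the C/EBP site TTGNGNAA or the TATA box TATAAA, and no 2 of the marked matches overlap. The Il6 run lies at chr5:30012864-30013113 on the plus strand, Tnf at chr17:35202008-35202257 on the minus strand, Tgfb1 at chr7:25686752-25687001 on the plus strand and Tnfsf13 at chr11:69685555-69685804 on the minus strand.
Il6: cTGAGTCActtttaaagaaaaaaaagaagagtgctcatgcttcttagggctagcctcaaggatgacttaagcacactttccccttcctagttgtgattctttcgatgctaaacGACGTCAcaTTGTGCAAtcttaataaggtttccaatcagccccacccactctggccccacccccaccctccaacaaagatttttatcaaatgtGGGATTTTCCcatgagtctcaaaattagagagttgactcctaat
Tnf: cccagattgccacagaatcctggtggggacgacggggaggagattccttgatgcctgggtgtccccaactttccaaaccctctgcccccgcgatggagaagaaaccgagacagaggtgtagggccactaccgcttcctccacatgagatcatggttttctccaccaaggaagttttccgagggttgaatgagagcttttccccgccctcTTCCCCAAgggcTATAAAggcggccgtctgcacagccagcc
Tgfb1: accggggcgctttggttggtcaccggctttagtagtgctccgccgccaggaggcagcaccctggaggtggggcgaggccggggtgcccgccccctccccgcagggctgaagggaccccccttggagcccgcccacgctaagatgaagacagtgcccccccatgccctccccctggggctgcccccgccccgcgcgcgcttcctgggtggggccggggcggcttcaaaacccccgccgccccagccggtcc
Tnfsf13: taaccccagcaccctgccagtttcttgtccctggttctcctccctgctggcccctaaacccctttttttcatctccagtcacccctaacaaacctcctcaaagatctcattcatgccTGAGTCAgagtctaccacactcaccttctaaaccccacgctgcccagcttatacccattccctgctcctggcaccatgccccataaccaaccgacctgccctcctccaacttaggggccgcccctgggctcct

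In the Il6 run the κB match GGGATTTTCC stood at -44 to -35 from the start, the AP-1 match TGAGTCA at -249 to -243, the cAMP response element at -137 to -131 and the C/EBP match TTGTGCAA at -128 to -121. The Tnf run held a C/EBP match, TTCCCCAA, at -41 to -34 and a TATA box at -29 to -24. In the Tnfsf13 run the only match was an AP-1 site at -133 to -127, and the Tgfb1 run held none of the 5 motifs. Of 32851 mouse promoter windows of this length, 3.90% held the κB consensus, 6.75% the AP-1 site, 2.78% the cAMP response element, 11.7% the C/EBP site and 12.4% the TATA box. G and C made up 42.8% of the Il6 run, 57.6% of Tnf, 75.2% of Tgfb1 and 56.4% of Tnfsf13, with 3, 10, 21 and 3 CG dinucleotides. These letters are a description of the windows and say nothing about which factor was bound in these cells. Tnfsf13b, Il10 and Il15 are shown by name only.

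None of the 7 cytokines was called different between diseased-BWF1 and control PMs. A call needed a Benjamini-Hochberg adjusted p under 0.05 in edgeR's quasi-likelihood test and a fold change of at least 1.5, and 1.22% of the 10505 genes tested met both conditions (0.4% upwards and 0.819% downwards in diseased-BWF1 mice). Only Tnfsf13b, Tnfsf13, Tgfb1 and Il15 passed the filter on low counts and could be tested with the other genes. Tnf and Il10 lay too near the floor of 3 counts to compare. Il6 also failed the filter, with at most 7 counts in 4 of the 6 libraries, but 2 diseased mice were well above the floor and the spread among diseased mice limits its comparison too. Of the 4 tested members 0 had an unadjusted p under 0.05 and DESeq2 called 0, against 13.2% of all genes at that unadjusted p and 3.54% called by DESeq2. The groups overlapped for each of these 4 genes, whereas 20.9% of all tested genes had groups that did not overlap. In bulk RNA of sorted cells, fewer cells of a type cannot be told apart from less RNA per cell, here and in the results that follow.

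Levels per kilobase used the longest GENCODE transcript that is paired with a curated RefSeq mRNA record of the gene. In normalized counts per kilobase they spanned a wide range and fell into a high pair and a low group. Averaged over the 6 mice, Tnfsf13 stood at 515, Tgfb1 at 440, Il15 at 24.8, Il6 at 14.7, Tnfsf13b at 8.86, Tnf at 3.95 and Il10 at 1.09. Every mouse had more Tgfb1 than Il15 and more Tnf than Il10. Neighbours elsewhere in this order were not cleanly separated, since Tnfsf13 exceeded Tgfb1 in 4 of 6 mice, Il15 exceeded Il6 in 5, Il6 exceeded Tnfsf13b in 3 and Tnfsf13b exceeded Tnf in 5. Summed over the 7 genes, the level was 451 to 494 CPM in control and 401 to 512 CPM in diseased-BWF1 mice, so the total overlapped too. Tgfb1 and Tnfsf13, with means of 252 and 191 CPM over all mice, made up most of this sum.

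**Figure D1:**
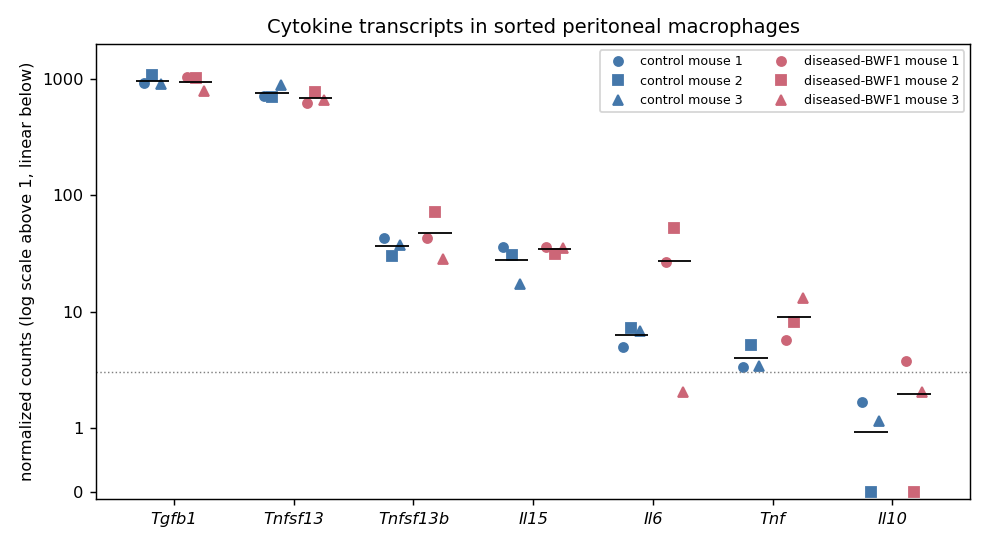
Normalized counts of the 7 cytokine genes in each mouse, on an axis that is logarithmic above 1 and linear below it. Blue symbols are control mice 1 to 3, red symbols diseased-BWF1 mice 1 to 3, horizontal bars group means and the dotted line 3 normalized counts; Il6 in diseased-BWF1 mice runs from 2.02 to 52.8, and Tgfb1 and Tnfsf13 stay near their group means.

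Tnfsf13b (chromosome 8, 10006229 to 10036000) was present at a low level in every library. The control mice had 52, 29 and 33 counts and the diseased-BWF1 mice 45, 71 and 28 counts. The highest and the lowest value of all 6 were thus both in diseased mice, and the groups overlapped. In counts normalized for library size the means were 36.9 ± 6.62 in control and 47.7 ± 22.4 in diseased-BWF1 mice (SD, n = 3 each). The log2 fold change was 0.36 with an SE of 0.36 and a 95% interval of -0.48 to 1.19 (edgeR adjusted p = 0.727; exact two-sided permutation p = 0.7, where 3 mice against 3 cannot give less than 0.1). Diseased-BWF1 mouse 2 carried the excess, and without it the value was -0.059. The interval includes a change of more than 1.5-fold upwards.

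Tnfsf13 (chromosome 11, 69682577 to 69685554), the gene of APRIL, was among the well-expressed cytokines. It had 857, 675 and 779 counts in control and 653, 756 and 657 counts in diseased-BWF1 mice. The ranges overlapped, although 2 of the 3 diseased mice lay below every control mouse. Mean normalized counts were 765 ± 109 in control and 683 ± 76.6 in diseased-BWF1 mice (SD, n = 3 each), a log2 fold change of -0.17 (SE 0.16, 95% interval -0.54 to 0.19, edgeR adjusted p = 0.702). The interval lies within a 1.5-fold change in either direction.

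The counts of Tnfsf13 were divided between 2 RefSeq records. Record NM_001159505 took 58.6%, 58.2% and 55.2% of the gene's counts in control mice and 46.7%, 53.0% and 42.3% in diseased-BWF1 mice. Every control mouse lay above every diseased mouse, with means of 57.3% ± 1.86 and 47.4% ± 5.39 (SD, n = 3 each; exact two-sided permutation p = 0.1, the smallest the design allows), and 20.9% of tested genes also had groups apart in their level. How reads that fit both records were assigned is not given in the sources used here, so these shares may be estimates. Tested alone, that record had a log2 fold change of -0.43 (edgeR adjusted p = 0.880) and the other, NM_023517, one of 0.12 (edgeR adjusted p = 1.00), so neither was called. Tnfsf13 shares its strand with Tnfsfm13, the read-through gene of the TWE-PRIL fusion of Tnfsf12 and Tnfsf13. Of the different 75-base stretches in Tnfsf13 transcripts, 55.7% also occur in Tnfsfm13, and 4.89% in the antisense gene Tnfsf13os, so the division of reads among these genes is uncertain. Tnfsfm13 itself had 71, 82 and 44 counts in control and 65, 61 and 52 in diseased-BWF1 mice, and adding its counts to Tnfsf13 left the log2 fold change at -0.17. The other 6 cytokines shared no 75-base stretch with another gene.

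Tgfb1 (chromosome 7, 25687002 to 25705077) showed the closest match between groups. Control mice had 1112, 1050 and 789 counts and diseased-BWF1 mice 1090, 1000 and 785 counts. In normalized counts the ranges overlapped, at 902 to 1082 in control and 791 to 1033 in diseased-BWF1 mice. Means were 968 ± 99.1 and 947 ± 135 normalized counts (SD, n = 3 each), and the log2 fold change was -0.04 (SE 0.16, 95% interval -0.41 to 0.33, edgeR adjusted p = 0.945). A change of 1.5-fold in either direction lies outside this interval, although the sign itself is not fixed, since omitting mice in turn gave values from -0.11 to 0.077.

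Il15 (chromosome 8, 82331624 to 82403252) was low but measurable. The counts were 43, 30 and 15 in control and 38, 31 and 35 in diseased-BWF1 mice. Control mouse 3 alone was low, and the diseased values lay inside the range of the other control mice or close to it. Normalized means were 27.9 ± 9.59 and 34.3 ± 2.43 (SD, n = 3 each), with a log2 fold change of 0.28 (SE 0.30, 95% interval -0.42 to 0.98, edgeR adjusted p = 0.750). These few reads were spread over 13 of 16 records, most of them predicted transcript models, so the sum over records is the only value that can be read.

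**Figure D2:**
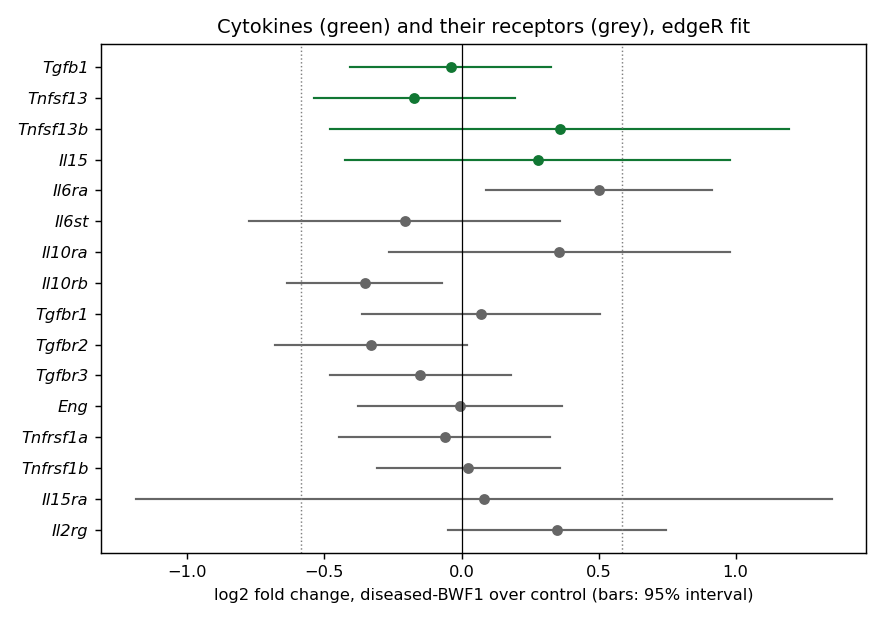
The log2 fold change of diseased-BWF1 over control PMs for the 4 tested cytokines (green) and the 12 tested receptor genes (grey), with 95% intervals as bars and dotted lines at a 1.5-fold change in either direction. The intervals of all but Il6ra and Il10rb include 0, and those of Tnfsf13b and Il15 are wider than those of Tgfb1 and Tnfsf13.

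Il6 (chromosome 5, 30013114 to 30019975) was the member with the widest spread among mice. Control mice had 6, 7 and 6 counts and diseased-BWF1 mice 28, 52 and 2 counts. Diseased-BWF1 mice 1 and 2 were above every control mouse and diseased-BWF1 mouse 3 was below them all, so the groups overlapped (exact two-sided permutation p = 0.4). Summed over mice the counts were 19 in control and 82 in diseased-BWF1, a ratio of 4.33 after adjustment for depth, with an exact interval of 2.60 to 7.55 that covers counting error only. In the model fitted without the filter the log2 fold change was 2.06 (SE 0.76, edgeR adjusted p = 0.330; adjusted p = 0.0151 to 0.794 over the alternatives). It was 2.61 and passed the threshold without diseased-BWF1 mouse 3 (edgeR adjusted p = 0.0151), and it was 1.18 without diseased-BWF1 mouse 2 (edgeR adjusted p = 0.794). The direction of the group mean therefore rested on 2 mice. The reads were also assigned unevenly to the 2 RefSeq records of the gene. Record NM_031168 had 0, 7 and 0 counts in control and 28, 48 and 2 in diseased-BWF1 mice, and NM_001314054 had 6, 0 and 6 in control and 0, 4 and 0 in diseased-BWF1 mice. In 5 of the 6 mice all reads of Il6 thus went to 1 record, and a division of so few reads between records cannot be read as a change of isoform.

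Immediate early genes are induced within minutes by stimulation or by handling of cells, and the most abundant of them stood high in the diseased mice with the higher Il6 counts. The summed level of 15 such genes was 958, 967 and 830 CPM in control mice and 2596, 2077 and 946 CPM in diseased-BWF1 mice. In this sum diseased-BWF1 mice 1 and 2 thus stood high, and mouse 3 lay within the range of the controls. By gene, in normalized counts, mouse 3 was above every control mouse in Fos, Fosb, Junb, Jund, Egr3, Ier2 and Nr4a1. In the other genes of the list it was not, and its Il6 was below every control mouse. Dusp1 alone made up 37.6% of the summed normalized counts. Mouse 3 was the lowest of the diseased mice in 9 of the 15 genes and not in the other 6, among them Egr1 (179, 108 and 198 counts in diseased-BWF1 mice), Jun (686, 204 and 310) and Ier2 (420, 339 and 349). Of the 12 immediate early genes tested 0 were called by edgeR, with 5 higher in every diseased than in every control mouse (9.81% of all tested genes) and a median log2 fold change of 0.97, beside 0.01 for all genes tested. DESeq2 called 4 of them, Fos, Junb, Ier2 and Nr4a1, all higher in diseased-BWF1 mice, against 3.54% of all genes. Of these Fos, Junb and Ier2 stand on the study's own list from these libraries, which is not independent evidence. Fosb, which failed the filter, had 0, 0 and 0 counts in control and 55, 7 and 13 in diseased-BWF1 mice. In the model fitted without the filter its edgeR adjusted p was 0.0206, and it stands on the study's list too. Fos, a subunit of AP-1, had 146, 172 and 139 counts in control and 1172, 612 and 219 in diseased-BWF1 mice. Junb, another AP-1 subunit, had 720, 687 and 515 counts in control and 1324, 1136 and 985 in diseased-BWF1 mice (edgeR adjusted p = 0.0523). Dusp1, a phosphatase that switches off MAP kinases, had 2200, 1285 and 576 counts in control and 3849, 3877 and 566 in diseased-BWF1 mice, so mouse 3 of the diseased group was here the lowest of all in counts. The part of these differences in the Il6 result was not tested.

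**Figure D3:**
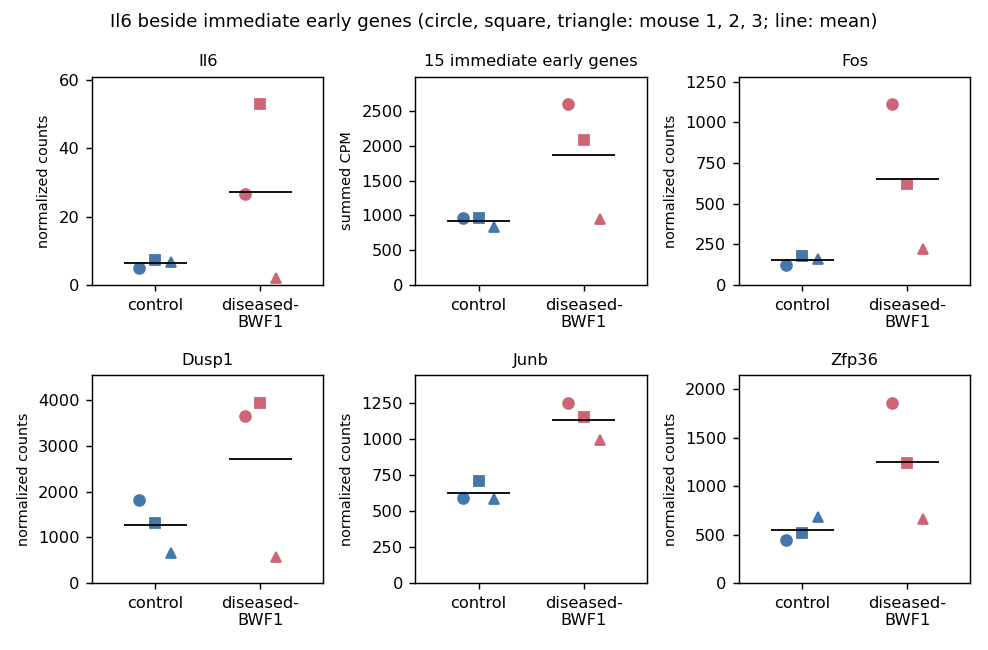
Il6, the summed level of 15 immediate early genes, and Fos, Dusp1, Junb and Zfp36 in each mouse, as normalized counts or summed CPM on linear axes starting at 0, with bars at group means. In all 6 panels diseased-BWF1 mice 1 and 2 (circle, square) lie above diseased-BWF1 mouse 3 (triangle), whose Il6 is 2.02 normalized counts. Fos, Dusp1 and Junb are among the 9 of 15 immediate early genes in which mouse 3 was the lowest diseased mouse. The 6 genes in which it was not are not shown singly, and Zfp36 is not among the 15.

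Tnf (chromosome 17, 35199367 to 35202007) was counted only a few times per library. Control mice had 4, 5 and 3 counts and diseased-BWF1 mice 6, 8 and 13 counts. Every diseased mouse lay above every control mouse, which 9.81% of the tested genes also showed (exact two-sided permutation p = 0.1, the smallest possible). The sums were 12 and 27 counts, a ratio of 2.26 with an exact counting interval of 1.11 to 4.89. Without the filter, the log2 fold change was 1.13 (SE 0.59, 95% interval -0.14 to 2.41, edgeR adjusted p = 0.607), and no alternative called it. Only diseased-BWF1 mouse 3, the mouse with the fewest Il6 counts, reached 10 counts of Tnf.

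Il10 (chromosome 1, 131019845 to 131024970) was close to absent from the counts. Control mice had 2, 0 and 1 counts and diseased-BWF1 mice 4, 0 and 2 counts. Diseased-BWF1 mouse 1 was the only library above the floor of 3 counts, and no fold change is given.

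Receptors of these cytokines were the next layer, since macrophages both make and answer several of them. Of 17 receptor genes 12 were tested and 0 were called, by edgeR or by DESeq2, with 2 at an unadjusted p under 0.05. Their median log2 fold change was 0.01, the same as over all genes tested. Il6ra, the ligand-binding chain of the IL-6 receptor, had 1158, 768 and 810 counts in control and 1087, 1224 and 1521 in diseased-BWF1 mice. After normalization every diseased mouse was above every control mouse (892 ± 88.5 against 1269 ± 252, SD, n = 3 each), and the log2 fold change of 0.50 (SE 0.18, 95% interval 0.09 to 0.91) missed the threshold with an edgeR adjusted p of 0.279. Il6st, the signalling chain gp130, had a log2 fold change of -0.21 (edgeR adjusted p = 0.770).

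Il10rb, the shared signalling chain of the IL-10 receptor, had 790, 750 and 631 counts in control and 606, 548 and 554 in diseased-BWF1 mice. Every control mouse was above every diseased mouse (716 ± 59.7 against 563 ± 9.89 normalized counts, SD, n = 3 each), with a log2 fold change of -0.35 (SE 0.12, edgeR adjusted p = 0.265). Il10ra, the ligand-binding chain, had a log2 fold change of 0.36 (edgeR adjusted p = 0.626). Among the TGF-β receptors, Tgfbr2 was 1877 ± 226 in control and 1501 ± 155 in diseased-BWF1 mice without overlap (log2 fold change -0.33, edgeR adjusted p = 0.412), whereas the values of Tgfbr1 (0.07), Tgfbr3 (-0.15) and the co-receptor Eng (-0.01) were closer to 0. The TNF receptors Tnfrsf1a (-0.06) and Tnfrsf1b (0.02) were near 0 on the same log2 scale. For IL-15, the presenting chain Il15ra had a log2 fold change of 0.08 with a wide interval of -1.19 to 1.35, and the common γ chain Il2rg one of 0.35 (edgeR adjusted p = 0.453).

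The receptors of BAFF and APRIL, found mainly on B cells and plasma cells, were at the floor. Tnfrsf13b (TACI) had 0 counts in all 6 libraries, Tnfrsf13c (BAFF receptor) at most 2, Tnfrsf17 (BCMA) at most 4 and the APRIL-binding proteoglycan Sdc1 at most 3. Il2rb, the IL-15 receptor chain of NK and T cells, had at most 5. None of these 5 genes could be compared between groups.

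Of 69 genes that process, release, control or transmit these cytokines, 64 were tested and 2 were called by edgeR, both higher in diseased-BWF1 mice. Higher edgeR calls among all genes made up 0.4%. DESeq2 called 6, of which Maf was lower in diseased-BWF1 mice, against 3.54% of all genes called by DESeq2. In 16 of the 64 every diseased mouse was above every control mouse, and in 3 the reverse (9.81% and 11.1% of all genes tested). The median log2 fold change was 0.22, beside 0.01 for all genes tested. The lists were written with earlier results of these data known, and Mmp14 and Ikbke, the genes called, as well as Thbs1, also stand on a list that the study drew from these same libraries, so their direction is not independent evidence.

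Mmp14, a membrane-bound matrix metalloproteinase that can release active TGF-β from its latent complex, stood out in the processing and release list (14 of 18 tested, 1 called). It had 7, 12 and 5 counts in control and 83, 52 and 88 in diseased-BWF1 mice, and the groups were far apart. The log2 fold change was 3.19 (SE 0.37, edgeR adjusted p = 0.0168). The call held in 2 of the 6 fits that left out a mouse, with values of 2.97 to 3.64. Thbs1, thrombospondin 1, another activator of latent TGF-β, had 541, 786 and 2005 counts in control and 7188, 13388 and 5463 in diseased-BWF1 mice. The lowest diseased value was above the highest control value, but with this spread the log2 fold change of 2.86 (SE 0.65) was not called (edgeR adjusted p = 0.103; DESeq2 adjusted p = 0.014). Ltbp3, which holds latent TGF-β in the matrix, had 116, 129 and 115 counts in control and 221, 257 and 194 in diseased-BWF1 mice, again without overlap (log2 fold change 0.88, edgeR adjusted p = 0.0834; DESeq2 adjusted p = 0.0089). Activation of TGF-β occurs on the protein, which these counts do not measure.

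**Figure D4:**
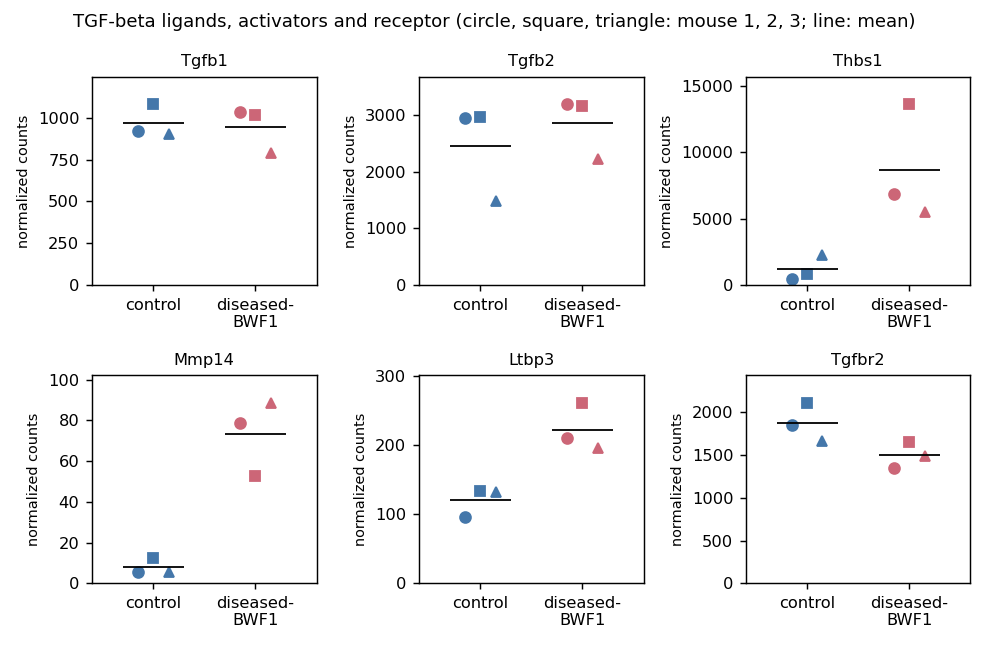
Tgfb1 and Tgfb2, the genes of 2 TGF-β ligands, beside Thbs1, Mmp14 and Ltbp3, which hold or activate the latent protein, and the receptor gene Tgfbr2, as normalized counts in each mouse on linear axes starting at 0, with bars at group means. The ligand panels overlap between groups, Thbs1, Mmp14 and Ltbp3 are higher in every diseased-BWF1 mouse, and Tgfbr2 is lower in every diseased-BWF1 mouse.

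Among genes that control the stability of cytokine mRNAs, 11 of 11 were tested and 0 were called by edgeR. Of the 11, 5 had an unadjusted p under 0.05 (13.2% over all genes), and DESeq2 called 1, Zfp36 (3.54% over all genes). Khsrp, an RNA-binding protein of AU-rich mRNAs, was higher in every diseased mouse (log2 fold change 0.43, edgeR adjusted p = 0.176), as was Rc3h1, the gene of Roquin-1 (0.46, edgeR adjusted p = 0.263). Zfp36, the gene of tristetraprolin, which destabilizes Tnf mRNA, had 539, 507 and 594 counts in control and 1961, 1214 and 659 in diseased-BWF1 mice. After normalization diseased-BWF1 mouse 3 (664) fell below control mouse 3 (679), so the groups overlapped, and the log2 fold change was 1.18 (edgeR adjusted p = 0.219; DESeq2 adjusted p = 0.026). Zfp36 is itself an inducible gene, and its order among the diseased mice was that of Fos.

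Of 16 genes of transcription control, all tested, 1 was called. Ikbke, the gene of the kinase IKKε, had 383, 291 and 247 counts in control and 658, 460 and 553 in diseased-BWF1 mice. The groups did not overlap, and the log2 fold change was 0.87 (SE 0.14, edgeR adjusted p = 0.0437), a call that was lost in each of the 6 fits without a mouse (values 0.76 to 0.98). With the replicate number as a block, neither Ikbke (edgeR adjusted p = 0.09) nor Mmp14 (edgeR adjusted p = 0.06) was called. Maf, a transcription factor that drives Il10 in macrophages, had 1221, 1127 and 1363 counts in control and 649, 431 and 895 in diseased-BWF1 mice. It was lower in every diseased mouse (log2 fold change -0.94, edgeR adjusted p = 0.212; DESeq2 adjusted p = 0.043). Nfkbiz, an IκB family member needed for Il6 induction, had a log2 fold change of 0.57 (edgeR adjusted p = 0.289). After normalization it was higher in every diseased mouse, but barely so in diseased-BWF1 mouse 3 (190.4, against 189.5 in control mouse 1).

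In the receptor signalling list 23 of 24 genes were tested and 0 were called by edgeR. Only 2 had an unadjusted p under 0.05 (13.2% over all genes). These were Traf3 and Traf2, adaptors of TNF family receptors. Traf3 had 181, 131 and 76 counts in control and 259, 177 and 198 in diseased-BWF1 mice (log2 fold change 0.74, edgeR adjusted p = 0.211), and Traf2 was also higher in every diseased mouse after normalization (0.51, edgeR adjusted p = 0.351). Tnfaip3, the gene of the NF-κB inhibitor A20, had 84, 74 and 49 counts in control and 140, 158 and 57 in diseased-BWF1 mice. As with Il6, diseased-BWF1 mouse 3 lay apart from the other two (log2 fold change 0.79, edgeR adjusted p = 0.414).

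Of 33 other cytokine genes 10 were tested and 0 were called by edgeR or by DESeq2. Of these 10, 2 had an unadjusted p under 0.05 (13.2% over all genes). Another 11 had no count in any library, among them Ifng, Ifnb1, Il12b and Il23a, and 12 had counts but stayed below the filter. Tgfb2 was the most abundant, with 3559, 2874 and 1295 counts in control and 3370, 3118 and 2209 in diseased-BWF1 mice. The groups overlapped (log2 fold change 0.21, edgeR adjusted p = 0.804), and per kilobase its mean over all mice, 520, was close to that of Tnfsf13. Tnfsf12, the neighbour of Tnfsf13 that encodes TWEAK, had a log2 fold change of 0.01 (edgeR adjusted p = 0.992). Il1a had 74, 110 and 57 counts in control and 34, 33 and 47 in diseased-BWF1 mice, lower in every diseased mouse (log2 fold change -1.09, edgeR adjusted p = 0.170). Il18 had a log2 fold change of -0.48 (edgeR adjusted p = 0.458), also without overlap. Ebi3, a chain of IL-27 and IL-35, had 21, 9 and 15 counts in control and 47, 66 and 14 in diseased-BWF1 mice (14.6 ± 4.61 against 41.9 ± 26.6 normalized counts, SD, n = 3 each, edgeR adjusted p = 0.314), with diseased-BWF1 mice 1 and 2 high and mouse 3 among the controls.

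Markers of related myeloid cells were read beside these values. Of the monocyte and small macrophage markers described here, Ly6c2 was at 0 in all libraries but 1. Ccr2, the chemokine receptor of monocytes, had 13, 8 and 2 counts in control and 24, 6 and 31 in diseased-BWF1 mice, and Irf4, a transcription factor of small peritoneal macrophages, had 57, 61 and 24 in control and 211, 59 and 84 in diseased-BWF1 mice. The groups overlapped for both genes, and neither was called (edgeR adjusted p = 0.441 and 0.314). Summed dendritic cell markers were 44.4 to 85.1 CPM in control and 9.23 to 18.1 CPM in diseased-BWF1 mice, a difference carried by Cd209a, which was called (log2 fold change -4.34, edgeR adjusted p = 0.0117), while Xcr1 and Clec9a had at most 6 counts in any library. Without Cd209a the list summed to 42, 35 and 36 counts in control and 55, 50 and 30 in diseased-BWF1 mice, which overlapped. Zbtb46, a transcription factor of classical dendritic cells and the other tested gene of the list, had 36, 30 and 19 counts in control and 47, 43 and 22 in diseased-BWF1 mice (log2 fold change 0.41, edgeR adjusted p = 0.652). The part of these cells in the cytokine values was not tested.

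The genes whose pattern over the 6 libraries was nearest to each tested cytokine were found by the root mean square difference of log2 CPM after centring each gene on its mean. Nearest to Tnfsf13b were Pars2 (0.075) and Adcy6 (0.084), and nearest to Tnfsf13 were Flot1 (0.028) and Cdk9 (0.032). For Tgfb1 they were Itga9 (0.0436) and Pisd-ps1 (0.0436), and for Il15 Gm46548 (0.044) and Syne2 (0.045). With 6 libraries and 10505 genes such near matches are a description only.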

How the data were processed

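The authors deposited, for each of the 6 mice, whole-number counts per RefSeq transcript record without normalization, made from paired-end reads of stranded mRNA libraries. The submitters' processing notes name Salmon 0.8.0, DESeq2 and build GRCm38.p6 without saying which step each served. Of 107193 records, 45754 were matched to a RefSeq gene with the same version and 40712 by accession, and their counts were summed per gene. The 20727 unmatched records were left out. Total counts of 3629901 to 5003360 per library limit the precision for genes near 3 counts, and intervals on summed counts cover counting error only.

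Groups came from the sample labels, which do not say more of the replicates than that each is a separate sample, and the paper describes separate mice. Genes were tested with edgeR 4.0.16 in R 4.3.3 (filterByExpr, TMM, quasi-likelihood test, Benjamini-Hochberg adjustment over 10505 genes) with no covariate. Normalized counts used DESeq2 1.42.0 size factors, and CPM used a prior count of 2 only on the log2 scale. Members below the filter were fitted by the same model without it. The code was tested on simulated data.

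The members and the lists were chosen with earlier results of these data known. Named genes are all members and receptors, in each pathway list every called gene and at least the 3 with the smallest p, in the other cytokines the 3 most abundant and the 3 with the smallest p, the 2 nearest genes of each tested member, and the most abundant markers. Genes named for low counts, for sequence overlap, or as the called gene or a defining gene of a marker list were added after their values were seen. The 2 T cell receptor constant genes of the T cell list had no record and were not used here, and 1 marker that the rule covers is not reported here. Alternatives were DESeq2, other normalizations and filters, age as a covariate, a replicate block, curated mRNA records alone and each mouse left out. Chosen after seeing the data were the calls without a fold-change threshold, the Tnfsf13 records tested alone and the addition of Tnfsfm13. The Tnfsf13 record shares, the order of diseased mice within the immediate early genes and the dendritic sum without Cd209a were also not planned. Positions of all 7 members and promoter windows of 5 of them were found in RefSeq tables, and Tnfsf13b, with more than 1 start, is not shown. Shared 75-base stretches and transcript lengths came from GENCODE transcripts of the same mouse build. No 2 libraries agreed within sampling noise.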

Additional observations from a re-analysis of the deposited data

How the results depend on the processing

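Of the tested members none was called under any alternative. Tnfsf13b ranged from -0.059 to 0.62 when each mouse was left out, the negative value being that without diseased-BWF1 mouse 2, and Tgfb1 from -0.11 to 0.077. Leaving out a mouse gave Tnfsf13 values of -0.26 to -0.04, with a reversed 0.12 for record NM_023517 alone, Il15 values of 0.04 to 0.49 and Tnf values of 0.76 to 1.38. Il6 ranged from 1.18 to 2.61 and was called only without diseased-BWF1 mouse 3. Il10 has no value, since it lay at the floor, and the filter of at least 10 counts in every library leaves Il6, Tnf and Il10 out.

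Genes called higher, 42 in the comparison reported, numbered 133 with DESeq2, 89 without the filter, 27 with at least 10 counts in every library, 9 with curated mRNA records alone and 11 to 22 without a mouse. For genes called lower, 86 as reported, the numbers were 239, 170, 57, 7 and 10 to 29, and 53 with age as a covariate. The 2 pathway calls became 6 with DESeq2, 4 without the filter, 1 with at least 10 counts in every library, 0 with curated records and 0 to 1 without a mouse. With curated records Mmp14 and Ikbke were not called. The cause of these shifts was not tested. Receptors and other cytokines stayed at 0 calls in every fit run. Low counts limit Tnf and Il10 in particular, and both low counts and the spread among diseased mice limit Il6.

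With the replicate number as a block, 18 genes were called higher, 20 lower and 0 of the pathway. Same-numbered mice correlated at 0.117, 0.00556 and 0.157 in their deviations from the group means. Control and diseased-BWF1 mice of different numbers correlated at -0.144 to 0.0573. The labels give no pairing, and a batch shared by same-numbered mice was not tested.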
